A study of Mus musculus with 22 samples.

Results

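Granulation tissue of Mmp13-/- mice was compared between 14 d and 7 d after implantation of a viscose cellulose sponge under the skin of the back. MMP-13 is a collagenase that cleaves fibrillar collagens, and granulation tissue is the vessel-rich connective tissue that fills a wound. In such tissue an early phase with many inflammatory cells is followed by a phase in which fibroblasts and contractile myofibroblasts lay down and order a collagen matrix. The series holds 22 Affymetrix arrays of Mmp13-/- and WT tissue at 7, 14 and 21 d, made in 2 hybridization series. The 6 arrays described here are all the Mmp13-/- arrays of the first hybridization series, 3 of 14 d and 3 of 7 d, and every array of that series was made from 2 µg of RNA with the same labelling kit. The 6 WT arrays of the same days and series served for comparison. Mice of both genotypes were 5 to 8 weeks old per the labels and male per the methods, and the WT mice came from the same backcrossed line. The labels give a mixed C57BL/6 and 129 background, while the design text gives a backcross to C57BL6 over several generations. The knockout was constitutive, so all cells of the tissue carried it. The design text gives 1 sample per mouse, so the arrays of a day are separate animals.

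The deposited values are RMA log2 signals, on which a difference of 1 stands for a 2-fold difference in signal. Differences are given as 14 d minus 7 d, so a positive value means a higher signal at 14 d. For each gene the brightest of its own probe sets was taken, which gave 18193 genes from 45037 probe sets. A probe set or gene was called when its limma p-value was under 0.05 after Benjamini-Hochberg adjustment across the 45037 probe sets, and "rose" and "fell" are used only of called genes. The median difference over all genes was 0.00, and 50.6% of them were positive. Array medians ran from 4.21 to 4.27, and a probe set is called dim when its mean over the 12 arrays was under 4.25, the median of all probe sets. A signal in the dim range is not shown to be above background, and a fold against it is uncertain. In whole tissue, fewer cells of a type and less RNA per cell cannot be told apart.

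Mmp13 itself served to test the labels. It read 8.33, 7.91 and 8.51 on the Mmp13-/- arrays of 14 d and 8.63, 8.61 and 7.87 on those of 7 d. All of them lay below the WT arrays, which had 11.87, 11.58 and 11.68 at 14 d and 11.09, 10.72 and 10.26 at 7 d. The sources used here do not say whether this probe set covers the deleted exons. Within Mmp13-/- tissue Mmp13 was not called between the days (-0.12 ± 0.24 standard error, adjusted p = 0.919).

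Markers of connective tissue and of macrophages were high. Col1a1, the main chain of type I collagen, had 12.80, 12.62 and 12.79 at 14 d and 12.72, 12.40 and 12.57 at 7 d. Lyz2, the lysozyme of macrophages, averaged 13.17 at 14 d. Epidermal keratins were low, with Krt14 at 3.25 and Krt10 at 5.38 on average at 14 d, although the sponges lay under skin. Genes of skeletal muscle differed between arrays of the same day. The mean over 20 skeletal muscle genes was 8.89, 8.57 and 6.15 on the 14 d arrays and 8.24, 5.76 and 8.99 on the 7 d arrays. Replicate 3 of 14 d and replicate 2 of 7 d were thus low, and no gene of this list was called between the days.

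Between 14 d and 7 d, 574 of 45037 probe sets were called in Mmp13-/- tissue (1.27%), with 254 higher (0.564%) and 320 lower (0.711%). Counted by gene, 355 of 18193 were called (1.95%), of which 142 were higher (0.781%) and 213 lower (1.17%) at 14 d. All 142 and all 213 had 14 d arrays that did not overlap with the 7 d arrays, which was also so for 21.5% of all genes. The rises ran from 0.33 to 4.69 on the log2 scale and the falls had sizes from 0.31 to 4.79, and 40 of the rises and 78 of the falls were over 1 in size. At an unadjusted p under 0.05 with a log2 difference over 1, 316 probe sets passed (0.702%), 121 of them higher (0.269%) and 195 lower (0.433%). The volcano plot shows the rises led by a few matrix, growth factor and granzyme genes and the falls led by Adipoq and Car4. The number of calls depended on single arrays. It was 128 without replicate 3 of 14 d, 158 without replicate 2 of 14 d, 344 without replicate 1 of 14 d, 175 without replicate 1 of 7 d and 228 without replicate 2 of 7 d, and 70 without both arrays that were low in muscle genes.

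**Figure D1:**
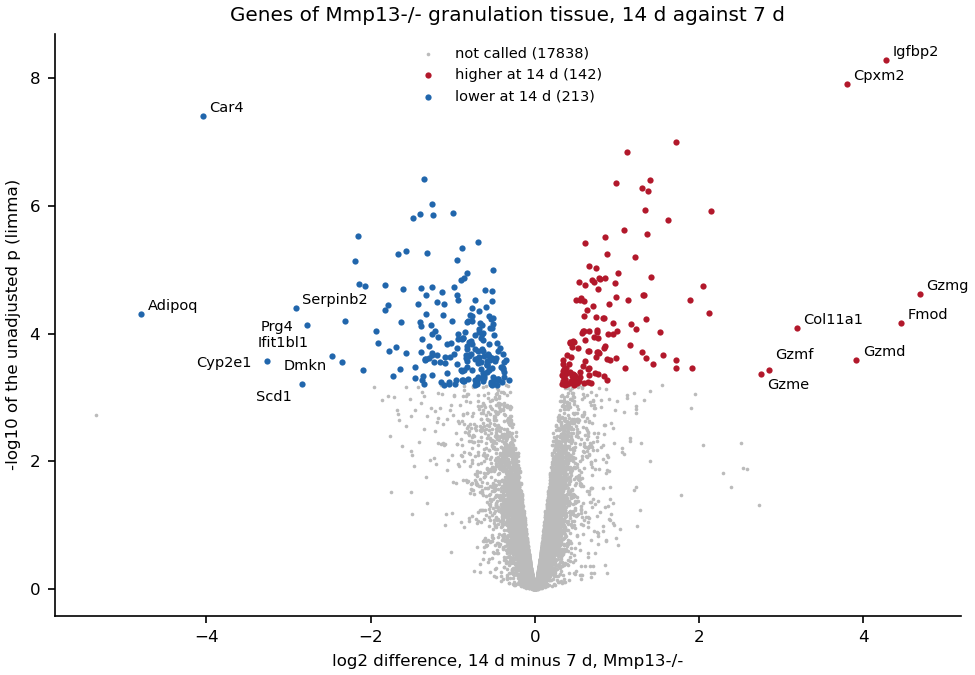
Log2 difference, 14 d minus 7 d (x axis), against -log10 of the unadjusted p from limma (y axis) for 18193 genes of Mmp13-/- tissue. Red points are the 142 genes called higher at 14 d, blue points the 213 genes called lower and grey points the genes not called; Igfbp2, Cpxm2 and Car4 have the smallest p-values.

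Genes of the extracellular matrix and of growth factor binding were among the 12 largest rises, beside the granzymes. Igfbp2, a secreted binding protein for insulin-like growth factors, had 7.95, 8.35 and 8.80 at 14 d and 3.80, 3.91 and 4.55 at 7 d. All 14 d arrays lay more than 3 log2 units above all 7 d arrays, and the difference was 4.28 (standard error 0.28, 19.4-fold, adjusted p = 0.000191). Cpxm2, a secreted protein of the carboxypeptidase family, had 7.18, 7.61 and 7.33 at 14 d and 4.02, 3.07 and 3.63 at 7 d, a difference of 3.80 (standard error 0.27, 13.9-fold, adjusted p = 0.000191). The 7 d values of Cpxm2, and those of Igfbp2 except replicate 3, were in the dim range, so the size of these rises is uncertain. Fmod encodes fibromodulin, a small leucine-rich proteoglycan that binds collagen fibrils. Its values were 8.96, 9.68 and 9.74 at 14 d and 4.08, 4.71 and 6.20 at 7 d, so that the 7 d arrays were spread over about 2 log2 units and still lay apart from the 14 d arrays (difference 4.46, standard error 0.74, 22.1-fold, adjusted p = 0.0159). All 6 probe sets of Fmod were called higher.

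Further matrix genes followed. Col11a1, a minor fibrillar collagen that sits in collagen fibrils, had 7.95, 7.77 and 8.34 at 14 d and 4.70, 4.16 and 5.63 at 7 d. Its difference was 3.19 (standard error 0.54, 9.13-fold, adjusted p = 0.0172). Col8a2, a short-chain network-forming collagen, had 4.72, 5.73 and 5.22 at 14 d and 3.27, 2.87 and 3.09 at 7 d (difference 2.15, standard error 0.24, adjusted p = 0.00256), and is a dim probe set. Tnmd, the tendon-associated membrane protein tenomodulin, rose by 2.13 (standard error 0.34, adjusted p = 0.0137). Sfrp1, a secreted antagonist of Wnt proteins, had 7.71, 8.06 and 8.36 at 14 d and 5.53, 6.12 and 6.32 at 7 d (difference 2.05, standard error 0.30, adjusted p = 0.00838). Tagln encodes transgelin, an actin-binding protein of smooth muscle and myofibroblasts, and had 9.91, 9.83 and 9.49 at 14 d and 7.80, 7.69 and 7.98 at 7 d. Its difference was 1.92 (standard error 0.38, 3.78-fold, adjusted p = 0.0366). In each of these genes the days did not overlap.

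**Figure D2:**
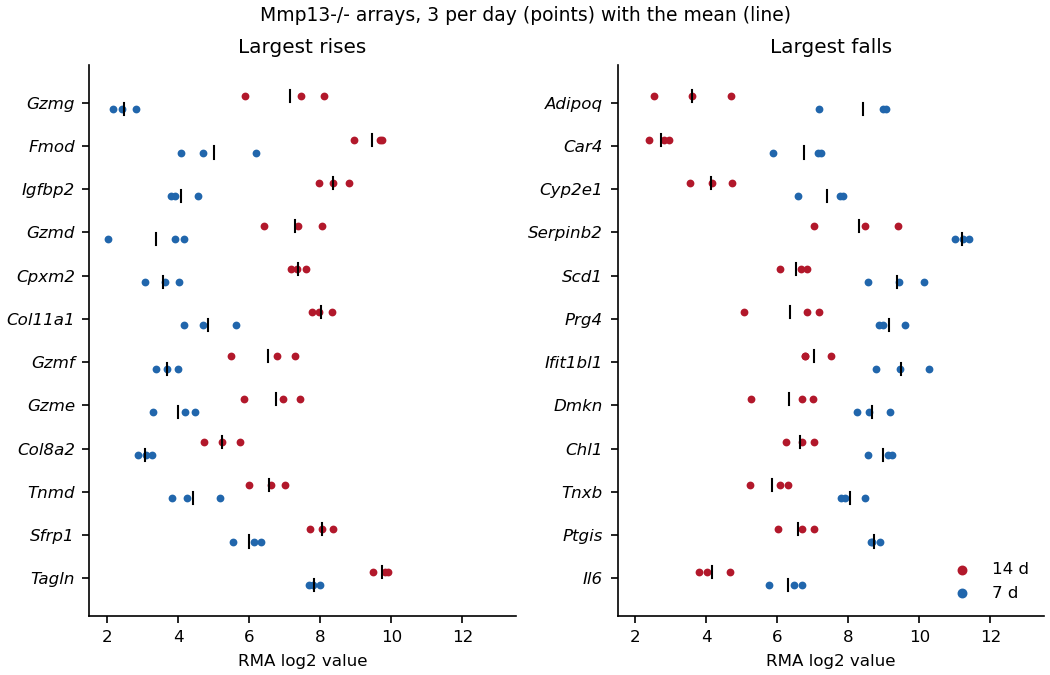
RMA log2 values (x axis) on the single Mmp13-/- arrays for the 12 called genes with the largest rise (left) and the 12 with the largest fall (right), with 14 d in red above 7 d in blue and the mean of each day as a black line. The days are separate in all 24 genes, and arrays of a day span over 2 log2 units in Gzmg, Serpinb2, Adipoq and Prg4 at 14 d and in Gzmd and Fmod at 7 d.

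Granzymes are serine proteases stored in the granules of cytotoxic lymphocytes, and 4 of the 12 largest rises were in this family. Gzmg had 5.88, 7.46 and 8.10 at 14 d and 2.80, 2.42 and 2.16 at 7 d (difference 4.69, standard error 0.69, adjusted p = 0.00965). Its 7 d values are in the dim range and are not shown to be above background, so the size of the rise is uncertain. Gzmd had 6.41, 7.37 and 8.05 at 14 d and 4.16, 3.91 and 2.01 at 7 d (difference 3.92, standard error 0.76, adjusted p = 0.0309). The 7 d values of Gzmd are in the dim range as well. Replicate 1 was the lowest 14 d array of both Gzmg and Gzmd. Gzmf and Gzme rose by 2.85 and 2.75 (standard error 0.57 for each, adjusted p = 0.0379 and 0.0417). Their 7 d means, 3.67 and 3.99, are in the dim range too. Of 10 granzyme genes measured, these 4 were called and none was lower, against 0.781% of all genes called higher. Gzmc, with 7.27, 7.40 and 7.60 at 14 d and 5.63, 6.32 and 4.17 at 7 d, was not called (difference 2.05, adjusted p = 0.157). Gzma, with 7.26, 7.65 and 7.69 at 14 d and 7.28, 9.18 and 5.97 at 7 d, and Gzmb, with 7.10, 7.59 and 7.62 at 14 d and 7.71, 9.26 and 6.57 at 7 d, were not called and their days overlapped. None of 22 genes of T and NK cells was called. All 4 lost the call when replicate 2 or replicate 3 of 14 d was left out, and Gzmd, Gzmf and Gzme also lost it without any 1 of the 7 d arrays.

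The 4 granzyme genes are near copies of each other, and probe sets of such genes can bind each other's RNA, so the share of each gene in the signal is uncertain. The likeness reaches into their promoters. The bases before the start of each gene are shown, from RefSeq on GRCm38.p6, all on the minus strand of chromosome 14 and read 5′ to 3′ along the gene, with the stretch of 36 bases that all 4 share in capitals:
Gzmd chr14:56132594-56132682: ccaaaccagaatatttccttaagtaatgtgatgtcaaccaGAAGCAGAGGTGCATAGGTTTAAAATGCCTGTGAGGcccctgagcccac
Gzme chr14:56120626-56120715: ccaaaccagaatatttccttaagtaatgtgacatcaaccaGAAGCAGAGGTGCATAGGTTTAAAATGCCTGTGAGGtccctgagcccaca
Gzmf chr14:56211427-56211517: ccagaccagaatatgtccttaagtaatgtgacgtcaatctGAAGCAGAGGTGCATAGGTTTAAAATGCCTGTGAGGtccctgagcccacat
Gzmg chr14:56159594-56159684: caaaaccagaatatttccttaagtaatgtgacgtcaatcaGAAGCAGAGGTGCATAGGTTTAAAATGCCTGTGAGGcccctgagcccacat
Over these stretches Gzmd and Gzmg were identical at 86 of 89 bases, and the least alike pair, Gzmd and Gzmf, at 83 of 89.

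Several genes of elastic fibres and microfibrils, the elastin fibres and the fibrillin scaffold around them, rose. Of 17 measured members 6 rose and none fell, against 0.781% of all genes called higher, and the median difference was 0.35. The members were not of 1 direction, since 5 differences were negative, and Efemp1 (-1.38), Ltbp1 (-0.80) and Emilin2 (-0.44) had 14 d arrays wholly below the 7 d arrays without a call. Ltbp2, a latent TGF-beta binding protein of microfibrils, had 8.53, 8.59 and 8.56 at 14 d and 7.27, 7.47 and 7.56 at 7 d (difference 1.13, standard error 0.10, adjusted p = 0.00108). The 14 d arrays were nearly equal and all above the 7 d arrays. Fbn2, or fibrillin 2, had 7.75, 7.93 and 8.29 at 14 d and 6.04, 6.45 and 6.78 at 7 d (difference 1.57, standard error 0.30, adjusted p = 0.029). Mfap4, a microfibril-associated glycoprotein, rose by 1.53 (adjusted p = 0.0186) and Eln, elastin, by 1.16 (adjusted p = 0.0237), and smaller rises were seen in Fbln1, fibulin 1 (0.55), and Emilin1, an elastin interface protein (0.52). The count of rises was between 1 and 3 when 1 Mmp13-/- array was left out, while the median stayed between 0.28 and 0.42.

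Small leucine-rich proteoglycans, which bind collagen fibrils and shape their diameter, moved both ways. Besides Fmod, Bgn, biglycan, rose with 12.21, 12.15 and 12.13 at 14 d and 11.83, 11.62 and 11.72 at 7 d (difference 0.44, adjusted p = 0.0298). Dcn, decorin, fell, with 12.05, 12.03 and 11.97 at 14 d and 12.58, 12.54 and 12.45 at 7 d (difference -0.51, standard error 0.07, adjusted p = 0.00643). Lum, lumican, fell too, with 10.32, 10.59 and 10.17 at 14 d and 11.36, 10.86 and 10.94 at 7 d (difference -0.69, adjusted p = 0.0453). Of 12 measured members 2 were thus higher and 2 lower, against 0.781% of all genes called higher and 1.17% called lower. Bgn and Lum lost the call without any 1 of the 6 Mmp13-/- arrays. With 1 such array left out the list had at most 1 rise and 1 fall.

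Of 11 fibrillar collagen genes only Col11a1 was called by its brightest probe set, against 1.95% of all genes called. Col1a1 differed by 0.17 (standard error 0.12, adjusted p = 0.677). Col3a1, the collagen of early granulation tissue, had 13.21, 13.23 and 13.26 at 14 d and 13.45, 13.44 and 13.43 at 7 d, without overlap but also without a call (difference -0.21, standard error 0.06, adjusted p = 0.181). These signals are close to the top of the range, where values above 13 are near the highest on the arrays (13.66). The other probe set of Col3a1, lower in the range at 11.32 on average at 14 d and 11.92 at 7 d, was called lower (difference -0.60, standard error 0.10, adjusted p = 0.0148). Among 18 other collagen genes Col12a1, a collagen that decorates fibrils, rose with Col8a2. Its values were 10.73, 10.58 and 10.75 at 14 d and 9.31, 9.19 and 9.52 at 7 d (difference 1.35, standard error 0.15, adjusted p = 0.00256). Of 21 genes of collagen processing and cross-linking none rose and, against 1.17% of all genes called lower, 2 fell. These were Plod2, a lysyl hydroxylase (difference -1.07, adjusted p = 0.0408), and Loxl4, a lysyl oxidase-like enzyme (difference -0.58, adjusted p = 0.0344). Neither was called without replicate 1, 2 or 3 of 14 d or replicate 1 or 2 of 7 d. Lox, lysyl oxidase itself, differed by 0.16 (adjusted p = 0.728). None of 21 basement membrane genes was called.

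Of 20 genes on the list of integrins and collagen receptors 4 rose and none fell, against 0.781% of all genes called higher. Itgbl1, a secreted protein with integrin-like repeats, had 7.56, 7.49 and 7.82 at 14 d and 6.07, 6.33 and 6.26 at 7 d (2.65-fold higher, standard error 0.14 on the log2 scale, adjusted p = 0.00176). Itgb5, a subunit of a vitronectin receptor, rose by 0.59 (adjusted p = 0.0104), Itga8, the alpha chain of a receptor for nephronectin and tenascin, 2.00-fold (adjusted p = 0.0185) and Itga4, a leukocyte integrin chain, by 0.46 (adjusted p = 0.0247). For Itga4 only 1 of 5 probe sets was called. The called probe set of Itga8 is dim, so its fold is uncertain. The other probe set of Itga8 was not called (difference 0.21, adjusted p = 0.501). The list had between 1 and 4 rises when 1 Mmp13-/- array was left out, fewest without replicate 3 of 14 d. Among 23 adhesive and matricellular proteins 2 fell, against 1.17% of all genes called lower. Tnxb, tenascin X, which links collagen fibrils, had 6.07, 6.29 and 5.22 at 14 d and 8.46, 7.89 and 7.78 at 7 d (difference -2.18, standard error 0.29, 4.54-fold, adjusted p = 0.00529). Thbs3, a thrombospondin, fell by 1.15 (adjusted p = 0.0318).

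Among 15 matrix metalloproteinases none was called by its brightest probe set. Mmp11, stromelysin 3, came nearest, with 6.27, 5.84 and 6.69 at 14 d and 4.78, 5.05 and 5.34 at 7 d (difference 1.21, standard error 0.27, adjusted p = 0.0595). Mmp2, a gelatinase, was lower without overlap, at 9.79, 9.84 and 9.87 at 14 d and 10.41, 10.14 and 10.02 at 7 d, but was not called (difference -0.36, standard error 0.10, adjusted p = 0.146). Its other probe set, at 9.38 on average at 14 d and 9.80 at 7 d, was called lower (difference -0.42, adjusted p = 0.0483). Mmp3, stromelysin 1, and Mmp9, the other gelatinase, overlapped between the days (differences 0.34 and 0.44). Their inhibitors did move. Timp3, the matrix-bound inhibitor, had 8.96, 8.89 and 8.83 at 14 d and 7.23, 7.42 and 7.77 at 7 d (difference 1.42, standard error 0.20, adjusted p = 0.00754). Timp1, an inhibitor induced in inflammation, had 10.77, 10.51 and 10.17 at 14 d and 11.34, 11.26 and 11.22 at 7 d (difference -0.79, standard error 0.13, adjusted p = 0.0141). Serpinb2, or plasminogen activator inhibitor 2, had 9.40, 8.46 and 7.03 at 14 d and 11.23, 11.39 and 11.01 at 7 d, a fall of 7.53-fold with a wide spread at 14 d (difference -2.91, standard error 0.46, adjusted p = 0.0122). Serpina3n, an inhibitor of serine proteases, fell by 1.69 (adjusted p = 0.0247). Adamts15, a proteoglycan-cleaving enzyme, had 7.05, 6.90 and 7.22 at 14 d and 8.02, 7.70 and 7.92 at 7 d and was the only one of 21 ADAM and ADAMTS genes called (difference -0.82, adjusted p = 0.00691).

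Among growth factors the insulin-like growth factor system had 2 rises in 13 measured genes and a median of 0.38. For this count and those that follow, 0.781% of all genes were called higher and 1.17% lower. Besides Igfbp2, the growth factor Igf1 rose, with 10.77, 10.75 and 10.90 at 14 d and a mean of 10.08 ± 0.10 at 7 d (SD, n = 3; difference 0.73, standard error 0.13, adjusted p = 0.0203), and all 4 of its probe sets were called. Mdk, midkine, a heparin-binding growth factor, had 6.64, 6.88 and 7.07 at 14 d and 5.53, 5.43 and 5.70 at 7 d (difference 1.31, standard error 0.13, adjusted p = 0.00197). Fgf7, keratinocyte growth factor, fell by 0.78 (adjusted p = 0.022). Tgfb3, the isoform of TGF-beta known from scarless fetal repair, had 6.88, 6.99 and 6.98 at 14 d and 5.49, 5.40 and 5.90 at 7 d (difference 1.35, standard error 0.26, adjusted p = 0.0298). It was the only one of 31 genes of TGF-beta and BMP signalling called. Of 25 Wnt ligands and antagonists Sfrp1 and the receptor Fzd2 (difference 0.79, adjusted p = 0.00754) rose. Of 25 vascular growth factor and receptor genes only Nrp1, neuropilin 1, a co-receptor of VEGF, was called (difference 0.36, adjusted p = 0.0375). Igf1 and Nrp1 lost the call without any 1 of the 6 Mmp13-/- arrays, and Tgfb3 without any of them but replicate 3 of 7 d. Fgf7 lost it without replicate 2 or 3 of 14 d or replicate 1 or 3 of 7 d, and Sfrp1 without replicate 3 of 14 d.

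**Figure D3:**
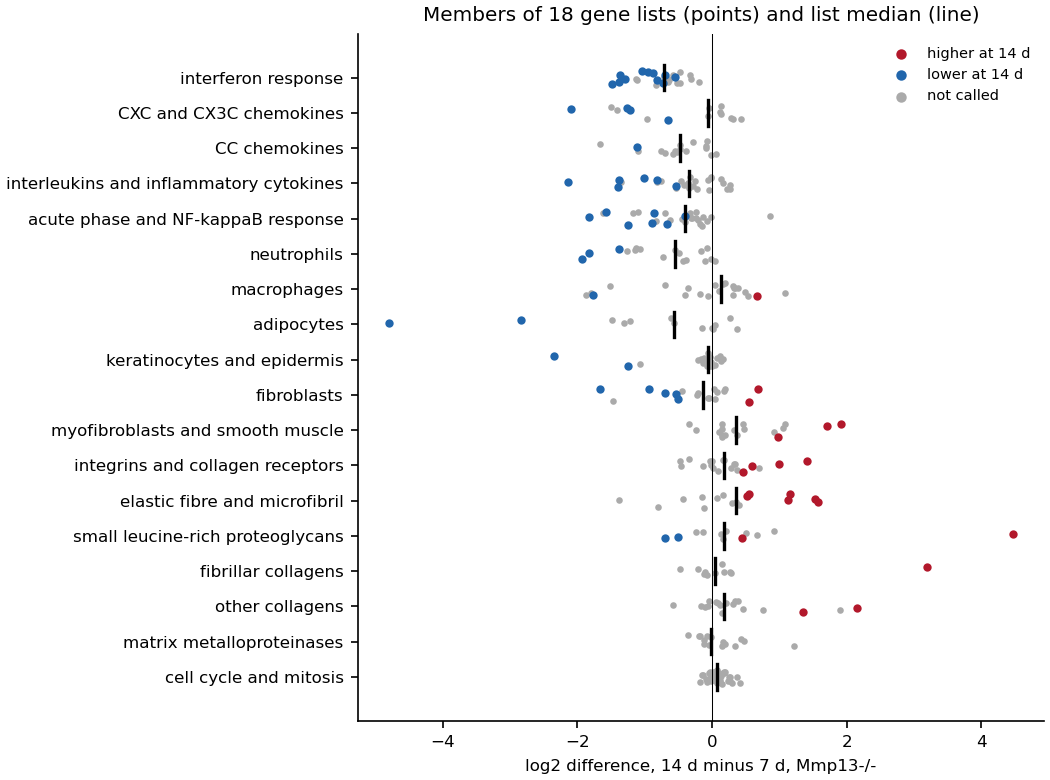
Log2 difference, 14 d minus 7 d (x axis), in Mmp13-/- tissue for each measured member of 18 gene lists (rows). Red points were called higher at 14 d, blue points called lower and grey points not called, and the black line is the list's median; all 25 interferon response genes lie below 0, and the matrix lists hold most of the red points.

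Falls were found among inflammatory genes. Of 28 interleukins, inflammatory cytokines and their receptors 6 fell and none rose, against 1.17% of all genes called lower, and 23 of the 28 differences were negative (median -0.35). Il6, interleukin 6, a cytokine of the acute inflammatory response, had 4.66, 4.03 and 3.79 at 14 d and 6.48, 5.75 and 6.68 at 7 d (difference -2.14, standard error 0.31, 4.42-fold, adjusted p = 0.00818). All 3 arrays of 14 d were more than 1 log2 unit below the lowest 7 d array. Replicates 2 and 3 of 14 d were in the dim range, so the size of the fall is uncertain. Tnf, tumour necrosis factor, had 6.89, 6.76 and 6.66 at 14 d and 7.20, 7.42 and 7.30 at 7 d (difference -0.54, standard error 0.09, adjusted p = 0.015). Il33, an alarm cytokine of stromal cells (difference -1.01), Osm, oncostatin M of the interleukin 6 family (-0.82), and the decoy receptors Il1r2 (-1.38) and Il13ra2 (2.65-fold lower) fell too, with adjusted p from 0.0156 to 0.0312. Il1b, interleukin 1 beta, had 9.53, 8.59 and 8.11 at 14 d and 10.24, 10.26 and 9.77 at 7 d, without overlap but without a call (difference -1.35, standard error 0.31, adjusted p = 0.0623). The count of falls in this list was 1 without replicate 3 of 14 d, 3 without replicate 2 of 14 d, replicate 1 of 7 d or replicate 2 of 7 d, and 5 or 6 without either of the other 2 arrays.

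Some chemokines fell as well. Of 15 CXC and CX3C chemokines 4 fell and none rose, against 1.17% of all genes called lower. In this list 6 differences were positive and the median was -0.06. Cxcl1, which attracts neutrophils, had 7.43, 7.09 and 6.78 at 14 d and 8.43, 7.86 and 8.68 at 7 d (difference -1.22, standard error 0.24, adjusted p = 0.0322). Cxcl2, of the same function, had 9.63, 8.88 and 8.43 at 14 d and 10.37, 10.19 and 10.15 at 7 d (difference -1.26, adjusted p = 0.0428). Cxcl11, an interferon-induced attractant of T cells, fell by 2.09 (standard error 0.42, adjusted p = 0.0379), and Cxcl5, a neutrophil attractant, had a difference of -0.65 (adjusted p = 0.0378). In the 17 CC chemokines 16 differences were negative (median -0.48) but only Ccl4, an attractant of monocytes and T cells, was called (difference -1.11, standard error 0.17, adjusted p = 0.011). Without replicate 2 or replicate 3 of 14 d, or replicate 1 of 7 d, none of the CXC chemokines was called.

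Acute phase and NF-kappaB response genes were also among the falls. Of 27 measured members 7 fell and none rose, against 1.17% of all genes called lower. In this list 26 differences were negative (median -0.40). Saa3, serum amyloid A3, had 11.48, 11.42 and 10.70 at 14 d and 12.27, 12.46 and 12.62 at 7 d (difference -1.25, standard error 0.18, adjusted p = 0.00846). Nfkbiz, an NF-kappaB cofactor induced by interleukin 1, had 8.07, 7.97 and 7.76 at 14 d and 8.81, 8.75 and 8.82 at 7 d (difference -0.86, standard error 0.12, adjusted p = 0.00754). Lcn2, lipocalin 2, an iron-trapping protein of neutrophils and epithelia, had 4.13, 4.11 and 3.82 at 14 d and 5.31, 6.52 and 5.70 at 7 d (difference -1.82, standard error 0.29, adjusted p = 0.0129). The 14 d values of Lcn2 were in the dim range. Tnfaip6, an anti-inflammatory hyaluronan-binding protein, fell by 1.57, and the feedback inhibitors Socs3 (-0.89) and Irak3 (-0.67) and the NF-kappaB subunit Relb (-0.40) fell with it. Markers of neutrophils were mostly lower too. Of 17 neutrophil genes 16 differences were negative (median -0.55). Lcn2, Hdc, the histamine-forming enzyme (difference -1.93, adjusted p = 0.0185), and Il1r2 were called, against the same 1.17% of all genes. Lcn2 is also counted in the acute phase list and Il1r2 among the interleukins and their receptors, so these lists share genes. The list's mean was 6.10, 5.77 and 5.67 on the 14 d arrays and 6.57, 6.82 and 6.38 on the 7 d arrays, with S100a8, a calcium-binding protein abundant in neutrophils, at -1.13 (adjusted p = 0.06). The part of neutrophils in the fall of inflammatory genes was not tested. Without replicate 2 or replicate 3 of 14 d, 2 of the acute phase and NF-kappaB list and none of the neutrophil list were called lower, and without replicate 1 or replicate 2 of 7 d these counts were 3 and 1. Without replicate 1 of 14 d or replicate 3 of 7 d, 6 and 5 neutrophil genes were called lower.

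Promoters of some of these genes hold the NF-kappaB motif, the binding sequence of that inflammatory transcription factor, within the 250 bases before the start. Those of Il6, Cxcl1 and Cxcl2 are shown as examples chosen by hand. The part of the motif in the falls was not tested. The sequences are from RefSeq on GRCm38.p6, all on the plus strand, with the motif in capitals:
Il6 chr5:30013040-30013109: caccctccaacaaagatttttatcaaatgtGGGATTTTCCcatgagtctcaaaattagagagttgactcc
Cxcl1 chr5:90891144-90891214: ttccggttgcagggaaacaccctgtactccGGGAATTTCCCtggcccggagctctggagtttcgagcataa
Cxcl2 chr5:90903772-90903842: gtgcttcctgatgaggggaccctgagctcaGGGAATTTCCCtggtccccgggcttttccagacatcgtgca
Cxcl1 and Cxcl2 carry the same 11 capital letters, which match on both strands. The motif was searched on both strands in the 250 bases before the start of each gene with a promoter window. It was found in 16.3% of 172 genes called lower, in 10.1% of 109 genes called higher and in 10.1% of all 14452 genes with a window. Of the acute phase and NF-kappaB response genes with a window, 3 of 21 held it (14.3%). For the CXC and CX3C chemokines this was 4 of 12 (33.3%). For the myofibroblast and smooth muscle genes, of which none fell, it was 3 of 13 (23.1%). Other sequences searched in the same way were also more frequent in genes called lower than in all genes with a window. They included TATAAA (15.7% against 10.5%), CCAAT (43.6% against 39.4%) and TTTGAA (18% against 14.1%). A match is a description of the letters and does not show binding.

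Interferon response genes, which cells switch on after interferon or viral nucleic acid has been sensed, fell most evenly. Of 25 measured members all 25 had a negative difference (median -0.72). Of them 11 fell and none rose, against 1.17% of all genes called lower. In 23 members the 14 d arrays lay wholly below the 7 d arrays, against 10.1% of all genes. Ifit1, an antiviral protein that binds foreign RNA, had 8.60, 9.12 and 8.62 at 14 d and 10.21, 10.52 and 10.06 at 7 d (difference -1.48, standard error 0.17, 2.80-fold, adjusted p = 0.0027). Rsad2, viperin, had 10.69, 10.68 and 10.50 at 14 d and 12.05, 12.14 and 11.84 at 7 d (difference -1.39, standard error 0.20, adjusted p = 0.00849). In both genes replicate 2 of 7 d was the highest array. Also called were Ifih1, a sensor of viral RNA (difference -0.82), Usp18, an inhibitor of interferon signalling (-0.88), Mx1, an antiviral GTPase (-1.29), and Oas1a, which makes an antiviral second messenger (-0.55). Gbp3, Zbp1, Ifit2, Xaf1 and Oasl1 were the other members called, with differences between -1.36 and -0.71. Irf7, a transcription factor of this response, had 9.59, 10.01 and 9.57 at 14 d and 10.63, 10.91 and 10.14 at 7 d but was not called (difference -0.84, adjusted p = 0.0692). The list's mean was 8.62, 8.91 and 8.65 on the 14 d arrays and 9.49, 9.78 and 9.30 on the 7 d arrays. The count of falls ranged between 1 and 13 when single Mmp13-/- arrays were left out and was lowest without replicate 3 of 14 d, while the median stayed between -0.89 and -0.63. Ifit1bl1, a relative of Ifit1 outside the list, fell by 2.47, with 6.79, 7.51 and 6.78 at 14 d and 9.45, 10.26 and 8.77 at 7 d (adjusted p = 0.029).

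The core of the interferon-stimulated response element, GAAANNGAAA, was searched on both strands in the same windows, a motif added after the fall of these genes was known. It was found in 10 of 19 interferon response genes with a window (52.6%), in 14 of 172 genes called lower (8.14%), in 3 of 109 genes called higher (2.75%) and in 3.13% of all genes with a window. The stretches of Ifit1 (plus strand) and Rsad2 (minus strand) are shown as the genes of the list with the smallest adjusted p, with the element in capitals, which reads TTTCNNTTTC along the gene because it matches on the opposite strand:
Ifit1 chr19:34640755-34640843: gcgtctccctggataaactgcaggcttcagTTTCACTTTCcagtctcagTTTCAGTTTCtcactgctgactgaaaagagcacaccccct
Rsad2 chr12:26456533-26456602: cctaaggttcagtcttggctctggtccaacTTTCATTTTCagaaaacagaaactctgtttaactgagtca
Ifit1 holds 2 matches and Rsad2 holds 1. The AP-1 sequence TGANTCA was found in 15.7% of the genes called lower, 9.17% of those called higher and 6.7% of all genes with a window.

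Genes made in fat were among the 12 largest falls. Adipoq encodes adiponectin, a hormone made by adipocytes, and had 4.70, 2.52 and 3.60 at 14 d and 7.18, 9.06 and 8.96 at 7 d (difference -4.79, standard error 0.77, 27.7-fold, adjusted p = 0.0139). Replicates 2 and 3 of 14 d were in the dim range for Adipoq, so the size of its fall is uncertain. Scd1, a fatty acid desaturase, had 6.83, 6.66 and 6.08 at 14 d and 8.54, 9.42 and 10.12 at 7 d (difference -2.84, standard error 0.61, adjusted p = 0.0497). These were the 2 called among 13 measured adipocyte genes, against 1.17% of all genes called lower. The mean of the adipocyte list was 5.88, 5.59 and 5.52 on the 14 d arrays and 6.21, 6.69 and 6.92 on the 7 d arrays, and the days did not overlap. Fabp4, the fatty acid binding protein of adipocytes and macrophages, did not follow (difference 0.01, adjusted p = 0.993), and Lep, leptin, was dim throughout. Cyp2e1, a cytochrome P450 enzyme also made in fat, had 4.73, 4.15 and 3.55 at 14 d and 6.59, 7.85 and 7.76 at 7 d (difference -3.26, standard error 0.63, adjusted p = 0.0315). The number of adipocytes in the sampled tissue was not measured, and its part in these falls was not tested. Adipoq was not called without replicate 2 or replicate 3 of 14 d or replicate 2 of 7 d. Scd1 and Cyp2e1 lost the call without any 1 of the 6 Mmp13-/- arrays. With all 22 arrays and a term for the hybridization series, Adipoq, Scd1 and Cyp2e1 were not called.

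Other large falls were in genes of several kinds. Car4, a carbonic anhydrase on the cell membrane, had 2.81, 2.38 and 2.95 at 14 d and 7.24, 5.87 and 7.15 at 7 d (difference -4.04, standard error 0.32, 16.4-fold, adjusted p = 0.000443). At 14 d all its values were in the dim range. Prg4, lubricin, a lubricating proteoglycan of joint linings, had 7.18, 6.84 and 5.07 at 14 d and 9.58, 8.86 and 8.98 at 7 d (difference -2.78, standard error 0.46, adjusted p = 0.0164). Ptgis, prostacyclin synthase, had 6.69, 7.03 and 6.01 at 14 d and 8.90, 8.63 and 8.67 at 7 d (difference -2.16, standard error 0.26, adjusted p = 0.00349). Chl1, a neural cell adhesion molecule, fell by 2.31 (adjusted p = 0.0156). Of its 4 probe sets 2 were called lower, and the other 2 were dim and not called, with differences of 0.03 and 0.24. Dmkn, dermokine, a secreted protein of the epidermis, fell by 2.35 (adjusted p = 0.0321) and Sbsn, suprabasin, had a difference of -1.25 (adjusted p = 0.0282). They were the only members of 20 keratinocyte genes called, against 1.17% of all genes called lower. The defining keratins Krt5 and Krt14 differed by -0.04 and -0.13. The mean of this list, of which 13 genes were dim, was 3.89, 3.88 and 3.73 at 14 d and 4.12, 4.09 and 4.05 at 7 d.

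Fibroblast genes split. Of 18 measured, 2 rose and 5 fell, against 0.781% of all genes called higher and 1.17% called lower. Cd34, a surface protein of resting fibroblasts, endothelium and progenitors, had 8.60, 8.58 and 7.99 at 14 d and 10.32, 10.02 and 9.81 at 7 d (difference -1.66, standard error 0.21, 3.16-fold, adjusted p = 0.00444). Dpt, dermatopontin, a matrix protein of dermal fibroblasts, had 9.64, 9.69 and 9.76 at 14 d and 10.89, 10.45 and 10.54 at 7 d (difference -0.93, adjusted p = 0.0193). Dcn, Lum and the fibroblast transcription factor Prrx1 (difference -0.53, adjusted p = 0.0299) fell as well. For Prrx1 only 1 of 6 probe sets was called. Pdgfrl, a receptor-like protein, and Fbln1 rose by 0.68 and 0.55. Neither rise was called when any 1 of the 6 arrays was left out, while between 2 and 4 genes of the list were called lower. The mean of the list was 9.42, 9.38 and 9.29 on the 14 d arrays and 9.75, 9.58 and 9.60 on the 7 d arrays, without overlap. Myofibroblast and smooth muscle genes tended upward, with 16 of 18 differences positive (median 0.35). Of the 18, 3 were called higher and none lower, against 0.781% of all genes called higher. Besides Tagln, Myl9, a light chain of smooth muscle myosin, had 8.77, 8.73 and 8.21 at 14 d and 6.69, 6.87 and 7.01 at 7 d (difference 1.71, standard error 0.33, adjusted p = 0.0312), and Cdh11, a cadherin of fibroblasts, rose by 0.98 (adjusted p = 0.00997). Acta2, the smooth muscle actin by which myofibroblasts are known, had 11.71, 11.57 and 11.42 at 14 d and 10.40, 10.22 and 10.81 at 7 d, without overlap but without a call (difference 1.09, standard error 0.34, adjusted p = 0.187). The mean of the list was 7.83, 7.70 and 7.27 on the 14 d arrays and 7.05, 6.79 and 7.36 on the 7 d arrays, so replicate 3 of 14 d lay below replicate 3 of 7 d. No gene of the list was called without replicate 2 or replicate 3 of 14 d or replicate 1 of 7 d, 1 was called without replicate 1 of 14 d or replicate 2 of 7 d and 2 without replicate 3 of 7 d. Tagln and Myl9 lost the call without any 1 of the 6 arrays. In skeletal muscle genes replicate 3 of 14 d was low and replicate 3 of 7 d was high. The part of muscle in the overlap of the list's means was not tested.

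The promoter of Myl9 holds a CArG box, the sequence bound by serum response factor in contractile genes, shown in capitals (RefSeq, GRCm38.p6, plus strand):
Myl9 chr2:156775273-156775342: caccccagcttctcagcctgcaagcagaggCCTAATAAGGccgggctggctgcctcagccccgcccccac
The box was found in 2 of 13 myofibroblast and smooth muscle genes with a window (15.4%) and in 1.43% of all genes with a window.

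Macrophage genes held 1 rise and 1 fall among 22 measured (9.09% called, against 1.95% of all genes). In 14 members the days did not overlap (8 above and 6 below at 14 d), against 21.5% of all genes. The list's mean was 9.79, 9.74 and 9.54 at 14 d and 9.85, 10.05 and 9.66 at 7 d. Mertk, the receptor with which macrophages take up dying cells, had 7.94, 8.02 and 8.34 at 14 d and 7.35, 7.49 and 7.48 at 7 d (difference 0.66, standard error 0.12, adjusted p = 0.027). Cd163, the haemoglobin scavenger receptor, had 5.51, 5.72 and 4.71 at 14 d and 7.16, 7.36 and 6.74 at 7 d (difference -1.77, standard error 0.33, adjusted p = 0.027). Stab1 and Stab2, scavenger receptors on the list of hyaluronan synthesis and binding, rose by 0.95 and 0.38 (adjusted p = 0.0192 and 0.0371), the second of them dim. Stab2 lost the call without any 1 of the 6 Mmp13-/- arrays, and Stab1 without replicate 2 or 3 of 14 d or replicate 1 of 7 d.

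Genes of blood vessels and of dividing cells were not called as groups. Of 20 endothelial genes only Aqp1, a water channel, was called (difference -0.76, adjusted p = 0.0122), and Pecam1, the endothelial adhesion molecule, differed by 0.14. The median was 0.12 in Mmp13-/- tissue and 1.12 in WT tissue, and for 10 pericyte genes, none of them called, it was 0.12 and 0.96. Lymphatic endothelial genes had the highest median of all lists (1.19) with no call among 6 measured. Lyve1, the hyaluronan receptor of lymphatic endothelium and some macrophages, differed by 2.51 (adjusted p = 0.153), and the list's mean was 5.57, 6.04 and 7.00 at 14 d and 5.14, 5.21 and 4.91 at 7 d. None of 49 cell cycle genes was called, and Mki67, a marker of dividing cells, had 7.94, 8.14 and 8.20 at 14 d and 7.94, 7.75 and 8.23 at 7 d. None of 27 genes of glycolysis and hypoxia, 10 of MHC class II antigen presentation, 22 of cathepsins and lysosome or 12 of B and plasma cells was called.

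**Figure D4:**
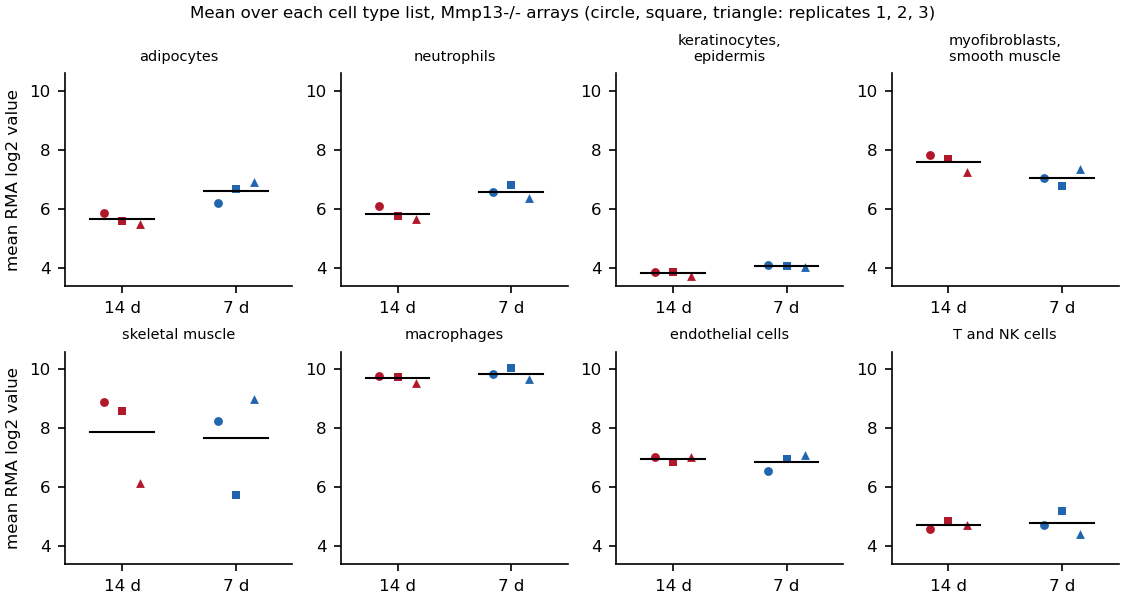
Mean RMA log2 value over the genes of 8 cell type lists (y axes) on each Mmp13-/- array, with 14 d in red left of 7 d in blue, the replicate number given by the marker shape and the mean of the day as a line. Of the 8 lists shown the days are separate for adipocytes, neutrophils and keratinocytes, while skeletal muscle is low on replicate 3 of 14 d and on replicate 2 of 7 d.

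Some genes differed by more than 3 log2 units between Mmp13-/- arrays of the same day. There were 51 such genes, most of them genes of skeletal muscle. Ckm, muscle creatine kinase, had 9.59, 9.04 and 5.74 at 14 d and 8.48, 5.66 and 9.13 at 7 d. Ifi202b, an interferon-activated DNA-binding protein, split in another way, with 2.71, 3.01 and 9.64 at 14 d and 10.47, 10.71 and 10.21 at 7 d. Here replicates 1 and 2 of 14 d were dim while the other 4 arrays lay between 9.64 and 10.71. Its difference was the most negative of all genes (-5.34), but it was not called (standard error 1.34, adjusted p = 0.0917). It was called when replicate 3 of 14 d was left out.

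The same days were set against each other in WT tissue in the same fit. There 1095 probe sets were called (2.43%), and 628 genes (3.45%). Of the 142 genes called higher in Mmp13-/- tissue 140 had a positive difference in WT and 99 were called higher there (1.93% of all genes were), and of the 213 called lower 206 had a negative difference in WT and 90 were called lower there (1.52% of all genes were). The median was 0.75 in Mmp13-/- and 0.67 in WT tissue for the rises, and -0.83 in Mmp13-/- and -0.58 in WT tissue for the falls. Of the falls 171 were larger in size in Mmp13-/- tissue, and since the genes were chosen on the Mmp13-/- arrays this count is not a test. Igfbp2 differed by 4.28 in Mmp13-/- and 3.90 in WT tissue, Gzmg by 4.69 and 4.59, and Il6 by -2.14 and -2.34. Adipoq differed by -4.79 in Mmp13-/- and by -1.67 in WT tissue (adjusted p = 0.336 in WT), and Prg4 by -2.78 and -0.46. The interferon response list had a median of -0.72 in Mmp13-/- tissue, against -0.56 in WT.

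**Figure D5:**
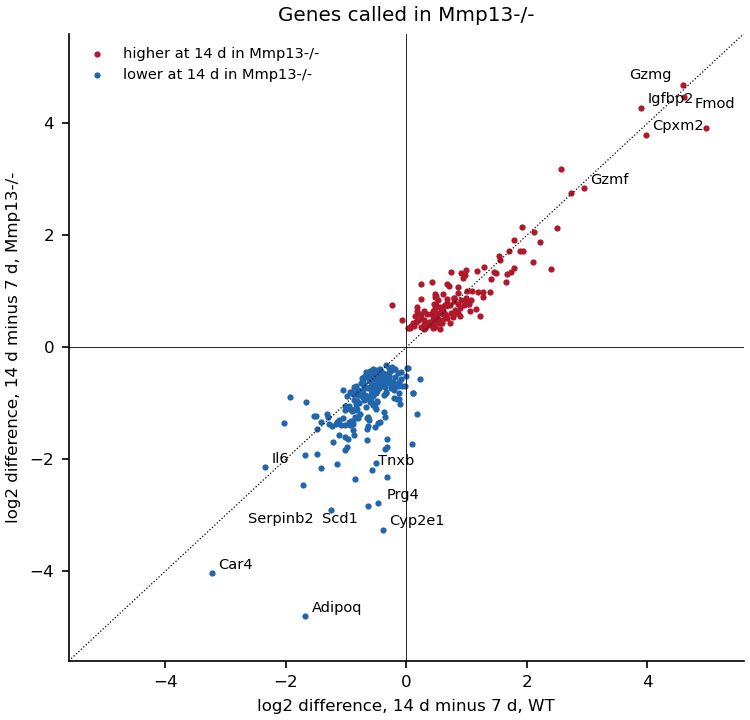
Log2 difference, 14 d minus 7 d, in Mmp13-/- tissue (y axis) against that in WT tissue (x axis) for the 142 genes called higher (red) and the 213 called lower (blue) in Mmp13-/- tissue, with the dotted line at equal change. The genes were chosen on the y axis; Gzmg, Fmod, Igfbp2 and Cpxm2 lie near the line, and Adipoq, Cyp2e1 and Prg4 lie farther from 0 in Mmp13-/- tissue than in WT tissue.

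Whether the change itself differed between the genotypes was tested as the change in Mmp13-/- minus the change in WT tissue. No probe set was called by limma (0 of 45037), and 2181 passed an unadjusted p under 0.05 (4.84%). The 4 genes with the smallest p-values were Dpep1, Pdgfra, Serping1 and Mmp2. Pdgfra, the PDGF receptor of fibroblasts, differed by -0.05 in Mmp13-/- and 0.78 in WT tissue (difference of the changes -0.83, adjusted p = 0.258). Of its 3 probe sets this is the brightest, and another was called lower in Mmp13-/- tissue (difference -0.83, adjusted p = 0.027). Serping1, the inhibitor of complement C1, differed by 0.03 in Mmp13-/- and 0.90 in WT tissue (difference -0.87, adjusted p = 0.258). Mmp2 differed by -0.36 in Mmp13-/- and 0.56 in WT tissue (difference -0.92, adjusted p = 0.271), and Dpep1, a dipeptidase, by 0.27 and 0.99 (difference -0.72, adjusted p = 0.258). For Adipoq the difference of the changes was -3.12 (adjusted p = 0.997). No change is therefore shown to be particular to Mmp13-/- tissue, and with 3 arrays per group the precision of a difference of 2 changes is low.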

How the data were processed

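RNA of granulation tissue was profiled on Affymetrix arrays. The authors ran RMA, of a version not given in the sources used here, and deposited its log2 signals per probe set, rounded to 2 decimals, as 1 table of 22 arrays. The members and the gene lists were chosen with earlier results of these data known.

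Of 45101 probe sets the 64 controls were left out. Means of 4 groups, 2 genotypes at 2 days, were fitted to the 12 arrays of the first hybridization series with limma 3.58.1 in R 4.3.3 (8 residual and 3.63 prior degrees of freedom), so that WT arrays add to the estimate of spread. Genes were named from the platform's annotation, in which 34945 probe sets have 1 symbol, 932 have several and 9160 are unnamed here. Named genes are Mmp13, the called genes with the 12 largest rises and the 12 largest falls, up to 4 called genes per list in order of adjusted p, members that define a list, the 4 genes with the smallest p of the genotype difference, and genes whose arrays of 1 day split by over 3 log2 units. Any other gene was chosen after its values were seen. The 44 lists (27 of pathways, 17 of cell types) hold 852 genes, of which 793 were measured and 82 called; lists are given as counts and medians without a set test. No exact permutation test was used because 3 arrays against 3 cannot go below p = 0.1 (two-sided). Motifs were searched in RefSeq promoter windows of GRCm38.p6. The steps were tested on simulated data. Alternatives were other sets of arrays, other scaling, a filter on dim probe sets, another variance model, a replicate block, the mean of a gene's probe sets and the omission of single arrays. The number of arrays limits the precision.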

Additional observations from a re-analysis of the deposited data

How the results depend on the processing

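Of 81 named genes that were called, none changed sign in any of 20 alternatives and 13 kept the call in every alternative that measured them, among them Igfbp2, Cpxm2, Car4, Tnxb, Ptgis, Il6, Ltbp2, Col12a1, Saa3, Mdk, Itgbl1 and Adamts15. The number of probe sets called was 547 with arrays centred on their medians and 573 after quantile normalization, against 574. With only the 6 Mmp13-/- arrays 201 probe sets were called higher and 192 lower, and with all 22 arrays and a term for the hybridization series 283 were called (147 higher and 136 lower). Counted by gene, 170 were called with all 22 arrays, and 149 of them were among the 355. Leaving out single arrays gave between 128 and 858 called, between 65 and 401 called higher and between 63 and 457 called lower, lowest without Mmp13-/- 14 d replicate 3 and highest without WT 7 d replicate 1. Without both arrays low in muscle genes, an alternative chosen after seeing the data, 70 were called (32 higher and 38 lower), and 41 of the 45 genes were among the 355. The count past an unadjusted p with a log2 difference over 1 was between 268 and 395 when single arrays were left out. The difference of the changes between genotypes gave between 0 and 4 called probe sets when single arrays were left out and 2 without both arrays low in muscle genes, and 1244 at an unadjusted p under 0.05 without dim probe sets and 1032 with all 22 arrays. The replicate numbers do not pair the samples: deviations of same-numbered arrays correlated at 0.09, -0.07 and -0.11. With the replicate block 606 probe sets were called. The cause of these differences was not tested.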

Other observations

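Called genes outside the fixed lists held further groups, chosen here after their values were seen and given without a test. Slit2, a secreted guidance ligand, rose by 1.89 and its receptor Robo1 by 0.78, and they were the 2 called among 7 Slit and Robo genes. Called higher were also 2 of 10 plexins (Plxna1 by 0.95 and Plxnc1 by 0.86), both plexin domain proteins measured (Plxdc1 by 0.75 and Plxdc2 by 0.55) and 2 of 13 Eph receptors (Epha4 by 1.38 and Ephb3 by 0.66), against 0.781% of all genes. None of these families held a fall, and their medians lay between 0.08 and 0.65. Apoe, apolipoprotein E, rose by 1.32, Gas6, a ligand of the receptor Mertk, by 1.22, and Abca1, a cholesterol transporter, by 0.39.

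Among the falls were 3 of 4 Steap metalloreductases, which reduce iron and copper at membranes (differences of -1.25 for Steap1, -0.81 for Steap2 and -1.18 for Steap4), and 3 of 9 Schlafen genes, a family induced by interferon (differences of -0.65 for Slfn2, -0.88 for Slfn4 and -0.68 for Slfn8), against 1.17% of all genes called lower. All 9 Schlafen differences and all 6 of the guanylate-binding proteins were negative. Acod1, which makes itaconate in activated macrophages, fell by 1.61, and Ackr3, a scavenger receptor of chemokines, fell by 1.78. Of 17 cell type lists, the means of the lymphatic endothelial, mast cell and osteoclast lists also had no overlap between the days. For the mast cell list they were 3.66, 3.58 and 3.70 at 14 d and 4.07, 4.24 and 3.82 at 7 d, and for the list of osteoclasts and giant cells 7.47, 7.45 and 7.53 at 14 d and 7.30, 7.23 and 7.33 at 7 d.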
